A study of Mus musculus with 18 samples.

Results

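Retained-intron transcripts are annotated transcripts of a gene in which the sequence of an intron of another transcript stays inside an exon. They were taken from 3 deposited tables of transcript counts as every entry typed retained_intron whose gene had at least 100 summed counts in every library of the table. This gave 16728 of 87073 transcripts in MCA205 cells, 17215 of 89209 in TC1 cells and 17501 of 87912 in TC1 tumours, in 6574, 6856 and 6998 genes. For each transcript the measure was its share, the percentage of its gene's summed counts in the same library that were assigned to it, and its count.

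The study set wild-type cells against sgNAT10 cells, in which a guide RNA was directed at Nat10, which encodes an RNA acetyltransferase that makes N4-acetylcytidine. Libraries came from wild-type and sgNAT10 cells of the mouse lines MCA205 and TC1 and from subcutaneous TC1 tumours of either genotype taken 8 days after implantation, 3 libraries in each of 6 groups. MCA205 is a chemically induced mouse fibrosarcoma line. The labels call TC1 a fibrosarcoma line as well, while the line usually known under that name derives from transformed lung epithelial cells. The sources used here do not say whether the sgNAT10 lines were single clones, how many guides were used, whether a control guide was present in the wild-type cells, or whether the 3 libraries of a group were separate cultures or animals. All p-values here thus rest on differences between libraries, which may be technical. In tumours, fewer cells of a type and less RNA per cell cannot be told apart.

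Introns are removed from nascent RNA by the spliceosome, and an intron that stays in usually keeps the RNA in the nucleus or exposes it to decay. Cells use this: many genes of splicing factors hold introns whose removal is regulated, so that the amount of productive messenger RNA can be set after transcription. Retained introns are as a rule shorter and richer in G and C than others. Whether the counting used the strand of the reads was not stated, so reads of a gene and of an antisense partner cannot be told apart.

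Of 18319 distinct transcripts in the 3 tables, 18260 (99.7%) were found in GENCODE vM21, and 5634 (30.9%) of those held at least 1 whole intron of a coding transcript inside an exon. A further 12578 began or ended inside an intron, so that they held part of it only, and 48 did neither. The 5634 transcripts held 6727 distinct introns with a median length of 254 bases, against 1430 bases for the 106490 other introns of coding transcripts of the same genes. Under 500 bases were 68.2% of the retained and 24.8% of the other introns. Of the retained introns, 98.1% began with GT and ended with AG, 1.10% were GC-AG and 0.119% (8 introns) AT-AC. AT-AC ends are found in some introns of the minor class, and introns of that class with other ends were not looked for. Their median GC content was 51.0%.

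The introns inside the transcripts that the results below turn on are shown first, so that their ends can be compared. They were read from the GENCODE vM21 transcripts (GRCm38, which is mm10) in the direction of transcription, and capitals mark the first 2 and the last 2 bases of the intron.
Cdk2-205 intron 1, first 60 bases, chr10:128704652-128704711, minus strand: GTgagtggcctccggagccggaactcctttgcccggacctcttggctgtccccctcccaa
Cdk2-205 intron 1, last 60 bases, chr10:128704004-128704063, minus strand: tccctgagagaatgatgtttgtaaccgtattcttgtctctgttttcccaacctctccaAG
Mybbp1a-208 intron 1, whole, chr11:72442645-72442745, plus strand: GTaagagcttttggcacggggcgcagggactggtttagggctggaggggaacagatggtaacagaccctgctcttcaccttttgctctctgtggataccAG
Mybbp1a-208 intron 2, whole, chr11:72446062-72446157, plus strand: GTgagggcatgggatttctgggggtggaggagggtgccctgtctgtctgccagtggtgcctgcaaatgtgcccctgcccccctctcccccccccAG
Rps24-204 intron 1, first 60 bases, chr14:24493494-24493553, plus strand: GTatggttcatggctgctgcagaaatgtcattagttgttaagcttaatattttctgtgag
Rps24-204 intron 1, last 60 bases, chr14:24493992-24494051, plus strand: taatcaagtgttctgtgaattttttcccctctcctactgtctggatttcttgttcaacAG
Rps24-204 intron 2, first 60 bases, chr14:24494070-24494129, plus strand: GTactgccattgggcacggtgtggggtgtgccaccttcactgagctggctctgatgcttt
Rps24-204 intron 2, last 60 bases, chr14:24495370-24495429, plus strand: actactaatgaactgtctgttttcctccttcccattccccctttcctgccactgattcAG
Rps24-204 intron 3, first 60 bases, chr14:24495450-24495509, plus strand: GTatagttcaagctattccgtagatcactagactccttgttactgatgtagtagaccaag
Rps24-204 intron 3, last 60 bases, chr14:24495715-24495774, plus strand: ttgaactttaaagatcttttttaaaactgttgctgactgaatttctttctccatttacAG
Srsf6-204 intron 1, first 60 bases, chr2:162932143-162932202, plus strand: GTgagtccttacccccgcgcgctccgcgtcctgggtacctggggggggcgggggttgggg
Srsf6-204 intron 1, last 60 bases, chr2:162932755-162932814, plus strand: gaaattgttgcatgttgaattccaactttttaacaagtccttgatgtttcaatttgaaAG
Srsf6-204 intron 2, first 60 bases, chr2:162932980-162933039, plus strand: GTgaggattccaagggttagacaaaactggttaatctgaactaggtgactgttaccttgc
Srsf6-204 intron 2, last 60 bases, chr2:162933366-162933425, plus strand: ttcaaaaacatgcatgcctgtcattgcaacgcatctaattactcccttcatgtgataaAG
These introns follow the GT-AG rule. The first intron of Srsf6-204 and that of Cdk2-205, which is 708 bases long, start with GTGAGT, as did 1005 (14.9%) of the 6727 retained introns on the transcript strand, the only strand searched. The Rps24-204 introns, of 558, 1360 and 325 bases, have rarer starts: the first begins with GTATGG, found in 1.17% of the introns, the second with GTACTG, found in 0.714%, and the third with GTATAG, found in 0.208%. In the 20 bases before the final AG, where a run of C and T is typical, C or T made up 80% in Cdk2-205, 70% and 95% in the 2 Mybbp1a-208 introns and 60% and 65% in those of Srsf6-204, beside a median of 75% over all retained introns. A match or its absence describes these letters only.

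Next are the intron of Pak1ip1-203, a transcript whose counts fell in MCA205 cells, and the ends of an AT-AC intron in E2f6-202, whose effect differed between TC1 tumours and TC1 cells.
Pak1ip1-203 intron 1, whole, chr13:41008939-41009218, plus strand: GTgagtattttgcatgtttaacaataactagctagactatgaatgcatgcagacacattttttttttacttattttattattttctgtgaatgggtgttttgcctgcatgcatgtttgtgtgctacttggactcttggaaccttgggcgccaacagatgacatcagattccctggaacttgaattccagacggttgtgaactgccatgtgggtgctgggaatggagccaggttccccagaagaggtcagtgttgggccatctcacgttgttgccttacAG
E2f6-202 intron 1, first 60 bases, chr12:16820385-16820444, plus strand: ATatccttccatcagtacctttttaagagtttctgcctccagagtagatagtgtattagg
E2f6-202 intron 1, last 60 bases, chr12:16822033-16822092, plus strand: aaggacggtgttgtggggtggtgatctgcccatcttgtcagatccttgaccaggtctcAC

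Library totals ran from 51661298 to 78501790 counts, and the members took up 3.18% to 5.24% of the counts of the genes of the rule. Nat10 RNA did not show the edit: it was at 14.2, 12.5 and 13.8 FPKM (fragments per kilobase of transcript, scaled to depth) in wild-type and 13.2, 13.6 and 13.6 in sgNAT10 MCA205 cells, at 13.9, 14.1 and 15.9 against 14.2, 12.4 and 11.7 in TC1 cells, and at 14.8, 16.2 and 15.3 against 12.3, 16.1 and 16.3 in tumours. The groups overlapped in every case, and since an edited gene can still be transcribed, this level checks no label. Fibroblast or mesenchymal markers were high in all libraries, with summed levels of 861 to 2491 FPKM, and epithelial markers summed to at most 166 FPKM in TC1 cells and 101.9 in MCA205 cells. A few libraries stood apart: the intestine marker list (8 of 8 genes over 1 FPKM on average) summed to 4.29 in wild type 1 and 1.35 in sgNAT10 2 of MCA205 cells and to 69.1 to 264 in the other 4 MCA205 libraries, sgNAT10 1 of TC1 cells had the lowest share of retained-intron counts of all 18 libraries, and wild type 1 of the tumours was the deepest library and had liver markers at 1.40 FPKM. Counts below are given with and without these libraries where it matters.

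Most genes gave few of their counts to these transcripts. In wild-type libraries the median gene with such a transcript had 1.86% of its counts in them in MCA205 cells, 1.69% in TC1 cells and 1.48% in tumours, and 215, 216 and 303 genes had over 50%. The transcript with most counts was Fth1-208, of the ferritin heavy chain that stores iron, with 65.4%, 64.2% and 63.3% of its gene's counts in wild-type and 60.4%, 62.6% and 64.4% in sgNAT10 MCA205 cells, ranges that overlap. Fth1 and ribosomal protein genes have near-identical copies in the genome, so their values depend on how reads were split and are uncertain. Just inside the limit of 100 counts was P4ha3, of collagen hydroxylation, in MCA205 cells: its lowest library had 100 counts, and its retained-intron counts were 5, 3 and 4 in wild type and 3, 2 and 11 in sgNAT10. Just outside was Hdac9, a histone deacetylase gene, whose lowest library had 99 counts and whose retained-intron counts were 0, 4 and 0 against 0, 4 and 5.

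The first question was whether the members as a whole took up more or less of their genes' counts in sgNAT10 libraries. In MCA205 cells they made up 4.13%, 3.99% and 4.06% of the counts in wild type and 4.34%, 4.49% and 4.47% in sgNAT10. The groups did not overlap, and the means were 4.06% ± 0.0691 and 4.43% ± 0.0817 (SD, n = 3 each), a difference of 0.369 percentage points (two-sided exact permutation test, p = 0.1, the smallest that 3 against 3 allows). With each gene's weight held at its mean over the 6 libraries, an alternative added after the data were seen, the difference was 0.215 points, and without the 50 genes with most counts it was 0.196.

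In TC1 cells the values were 3.59%, 3.69% and 3.71% in wild type and 3.18%, 3.78% and 3.81% in sgNAT10. The sgNAT10 libraries lay on both sides of the wild-type range, and the difference in means was -0.0780 points (exact permutation p = 1). Without sgNAT10 1 it was 0.127 points, so this library set the sign. In tumours the shares were higher: 4.01%, 4.18% and 4.43% in wild type against 4.75%, 5.24% and 5.24% in sgNAT10. All sgNAT10 tumours lay above all wild-type tumours, with means of 4.20% ± 0.214 and 5.08% ± 0.284 (SD, n = 3 each), a difference of 0.873 points (exact permutation p = 0.1) that was 0.774 points without wild type 1. Marker levels also differed between the tumour groups: liver markers (7 of 7 genes over 1 FPKM on average) summed to 1.40 to 189 FPKM in wild type and 451 to 498 in sgNAT10, skeletal muscle markers (4 of 4) to 15.8 to 18.6 and 61.0 to 103, endothelial markers (3 of 4) to 21.9 to 28.9 and 39.4 to 48.5, adipocyte markers (1 of 3) to 20.4 to 38.6 and 52.9 to 65.5, leukocyte markers (11 of 12) to 685 to 775 and 489 to 593, and red blood cell markers (2 of 3) to 110.9 to 332 and 50.1 to 81.0. The liver list was higher still in cultured TC1 cells, at 665 to 1173 FPKM in all 6 libraries, so it does not mark a cell type absent from those cultures. No marker of these lists was under 0.1 FPKM in all 6 tumours. Their part in the difference was not tested.

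**Figure D1:**
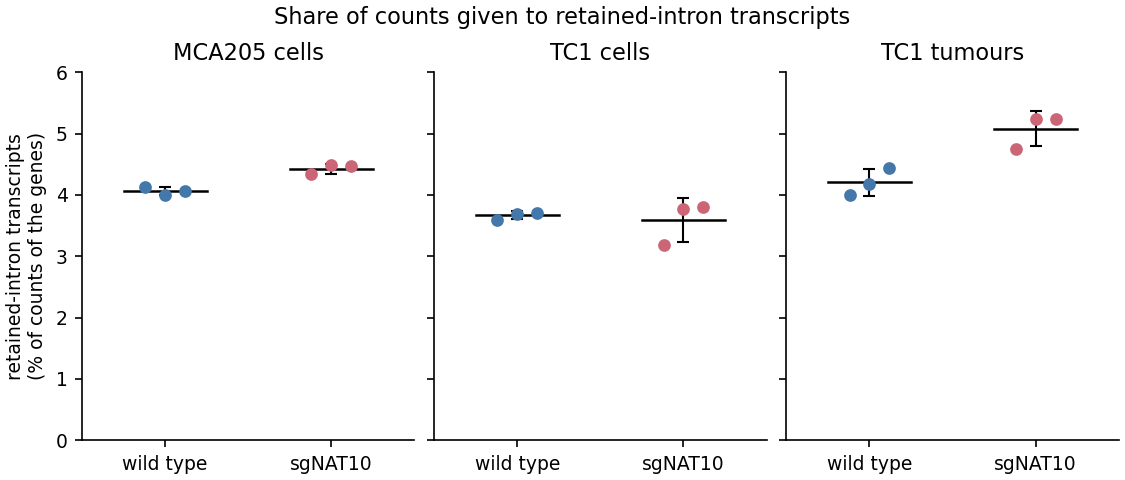
Percentage of the counts of the genes of the rule assigned to retained-intron transcripts (vertical axis) in each library (points), with the mean (line) and SD (error bar) of 3 libraries, for wild type and sgNAT10 in the 3 comparisons. The sgNAT10 points lie above all wild-type points in MCA205 cells (4.34% to 4.49% against 3.99% to 4.13%) and tumours, while in TC1 cells 1 sgNAT10 library lies at 3.18%, below wild type.

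Shares could be tested for 9955 transcripts in MCA205 cells, 9418 in TC1 cells and 9754 in tumours, nearly all of the rest having a mean under 10 counts. In MCA205 cells the share was higher in every sgNAT10 than in every wild-type library for 1619 of 9955 (16.3%) and lower for 1053 (10.6%), beside 11.3% and 9.87% of all transcripts tested. In TC1 cells 643 of 9418 (6.83%) were higher and 799 (8.48%) lower, beside 7.85% and 8.36%, which is near the background. In tumours 2687 of 9754 (27.5%) were higher and 191 (1.96%) lower, beside 13.5% and 7.44%. The median change in share was 0.09 on the log2 scale in MCA205 cells, -0.03 in TC1 cells and 0.48 in tumours, where 78.2% of members had a change above 0, and the medians over all transcripts tested were 0.00, -0.00 and 0.05.

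Leaving out the libraries that stood apart changed the direction in TC1 cells only. Without sgNAT10 1, 1604 (17.0%) of the TC1 members were higher and 1053 (11.2%) lower, beside 14.6% and 13.1% of all transcripts, and the median change was 0.07. Without wild type 1 and sgNAT10 2, 27.6% of the MCA205 members were higher and 19.7% lower, beside 21.6% and 20%. Without wild type 1, 3234 (33.2%) of the tumour members were higher and 414 (4.24%) lower, beside 18% and 11.5%. Fewer libraries overlap less often, so these percentages compare only with those given beside them.

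Other types of transcript were counted in the same way in tumours. Of the processed transcripts, noncoding transcripts without a retained-intron label, 21.8% were higher in all sgNAT10 tumours and 4.11% lower. Of transcripts marked for nonsense-mediated decay, the pathway that removes RNA with an early stop, 11.7% were higher and 4.74% lower. Coding transcripts went the other way, with 6.49% higher and 10.6% lower. The shares of a gene's transcripts add up to its whole, so rises in some types come with falls in others. In MCA205 cells the same order held among higher transcripts, with 13.2% of processed transcripts, 10.4% of decay transcripts and 8.75% of coding transcripts.

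**Figure D2:**
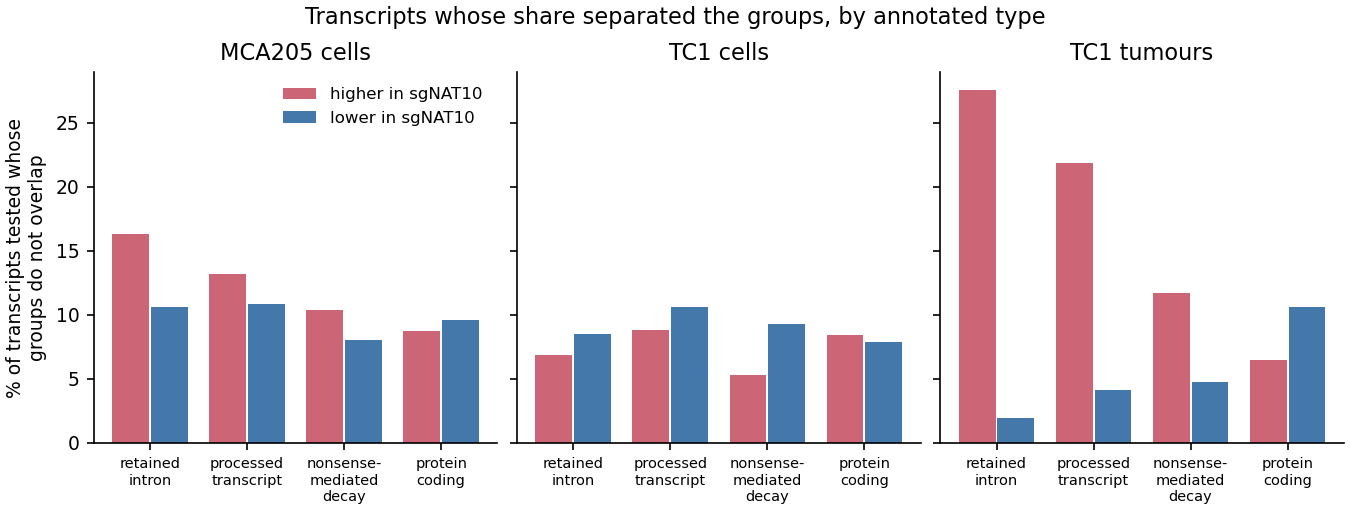
Percentage of tested transcripts (vertical axis) whose share was higher (red bars) or lower (blue bars) in all sgNAT10 than in all wild-type libraries, by annotated type, for the 3 comparisons. Retained-intron transcripts have the tallest red bar in MCA205 cells (16.3%) and in tumours (27.5%), and in TC1 cells their red bar (6.83%) is lower than their blue bar (8.48%).

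In MCA205 cells and tumours, members with longer introns were higher more often, as counted here. Among transcripts with exactly 1 whole intron, 9.22% were higher in MCA205 cells when the intron was under 150 bases, 14.1% from 150 to under 500 and 19.6% from 500 up. The corresponding values were 17.4%, 23.9% and 29.3% in tumours and 5.95%, 7.01% and 7.83% in TC1 cells. Of all transcripts tested, 11.3% were higher in MCA205 cells, 13.5% in tumours and 7.85% in TC1 cells. In TC1 cells the longest class was near that background. It was also lower most often there, at 10.3%, against 9.05% under 150 bases and 6.91% from 150 to under 500. In MCA205 cells 9.73% of the longest class were lower, against 12.5% and 11.1%, and in tumours 0.778%, against 2.46% and 2.19%. In tumours the 671 transcripts that were higher had a median intron of 362 bases and a median GC content of 48.1%, against 250 bases and 52% for the 2121 whose groups overlapped. In MCA205 cells the values were 391 bases and 49.4% against 264 bases and 51.1%. Transcripts with part of an intron were higher more often than those with a whole one in tumours, 29.6% against 24.7%, and 16.8% against 15.5% in MCA205 cells. The percentage of members higher also differed with depth. At mean counts of 10 to under 50, 50 to under 200 and 200 up, 12.9%, 19.4% and 21.0% were higher in MCA205 cells. The values were 24.6%, 32.0% and 28.5% in tumours and 6.54%, 7.08% and 7.34% in TC1 cells. Depth was not held fixed between the length classes, and none of these differences between classes of transcripts was tested.

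**Figure D3:**
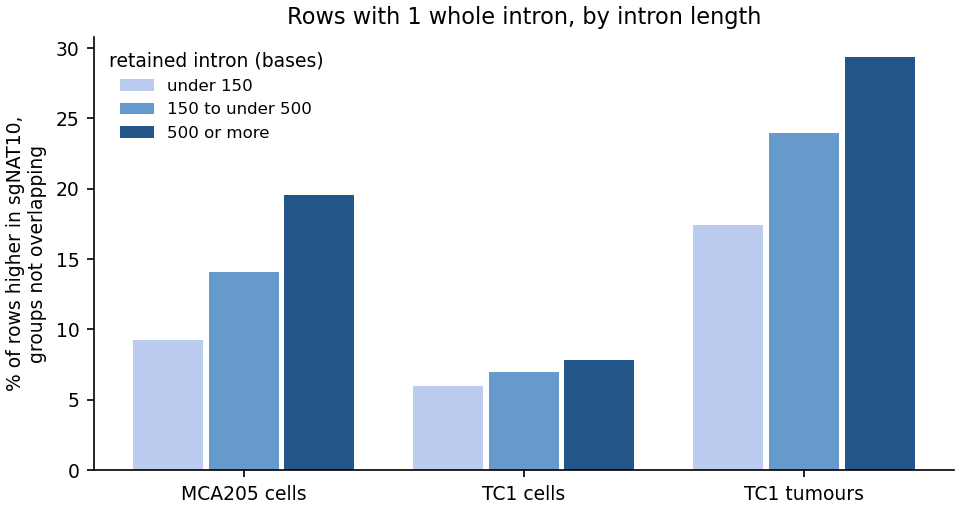
Percentage of retained-intron transcripts with 1 whole intron (vertical axis) whose share was higher in all sgNAT10 than in all wild-type libraries, by the length of the intron (bar shade) for the 3 comparisons. In each comparison the bar for introns of 500 bases or more is the tallest of its group, 19.6% in MCA205 cells, 7.83% in TC1 cells and 29.3% in tumours. The TC1 value is near the 7.85% of all transcripts tested there.

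A share depends on the rest of the gene too, so the level of the gene was set beside it. In MCA205 cells 19.7% of the members of genes at least 1.5-fold lower in sgNAT10 were higher in share, 16.3% of those of genes within 1.5-fold and 14.2% of those of genes at least 1.5-fold higher. In tumours the values were 28.9%, 28.0% and 23%.

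Few single transcripts passed the test of shares (edgeR quasi-likelihood with the gene's total as offset, Benjamini-Hochberg over all transcripts tested, adjusted p under 0.05). In MCA205 cells 13 of 9955 members rose, beside 0.0978% of all 36818 transcripts, and 2 fell, beside 0.0625% (0.16% in either direction). In TC1 cells none of 9418 rose, beside 0.0242% of all transcripts, and 2 fell, beside 0.035% (0.0593% in either direction). At an unadjusted p under 0.05, 370 were higher there, beside 4.34%, and 429 lower, beside 4.44%. For TC1 cells limma on the log2 odds of the share called 2 higher and 1 lower, limma on the share of FPKM 1 and 1, and edgeR's diffSpliceDGE 3 and 1. In tumours 1 of 9754 rose, beside 0.0135%, and none fell, beside 0.00269% (0.0162% in either direction). At an unadjusted p under 0.05, 1635 were higher there, beside 7.9%, and 115 lower, beside 3.14%. The other tools called 1 higher and 1 lower, 2 and 1, and 4 and 2 there, in the same order. In MCA205 cells 1171 were higher at that p, beside 6.87%, and 715 lower, beside 5.82%. The other tools called 3 higher and 1 lower, 6 and 3, and 8 and 6 in MCA205 cells. By the adjusted edgeR test in either direction, members were called no more often than all transcripts in any comparison. In MCA205 cells rises alone were more frequent among members than among all transcripts, and falls less frequent.

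Several of the 15 transcripts called in MCA205 cells belong to splicing factors. Srsf6, an SR protein that helps choose splice sites, had 9.30%, 9.92% and 10.9% of its counts in Srsf6-204 in wild type and 20.5%, 19.7% and 20.9% in sgNAT10. The groups were far apart, and the share rose by 1.02 on the log2 scale (edgeR, adjusted p = 0.0362). U2af1, the small subunit of the factor that reads the 3′ splice site, had 4.91%, 5.69% and 5.45% in U2af1-206 against 13.5%, 12.45% and 13.6% (log2 change 1.30, edgeR adjusted p = 0.0362). Luc7l, a component of the U1 particle that reads the 5′ splice site, had 4.94%, 6.13% and 5.18% in Luc7l-208 against 15.3%, 15.1% and 16.9% (1.54, edgeR adjusted p = 0.0374). Tra2a, an SR-like splicing activator, had 3.86%, 3.39% and 4.04% in the single-exon Tra2a-203 against 8.82%, 8.50% and 8.78% (1.21, edgeR adjusted p = 0.0445). Their sgNAT10 shares lay well above wild type in every library. Srsf11-218, of another SR protein, fell instead, from 7.42%, 8.09% and 7.37% to 3.34%, 3.76% and 3.68% (-1.09, edgeR adjusted p = 0.0373). Srsf2-203, of the SR protein SRSF2, outside the naming rule and picked after its values were seen, rose from 10.7%, 11.3% and 10.6% to 16.05%, 15.5% and 14.9% (0.51, edgeR adjusted p = 0.0450). Most of these calls depended on the settings. That of Tra2a-203 was lost in all 14 alternatives run, and those of U2af1-206, Luc7l-208 and Srsf11-218 in 12 of 14. That of Srsf6-204 was lost in 11 of 14. Of the 9955 members tested, 27 were of SR protein genes, with 3 called higher and 1 lower. Another 137 were of the spliceosome and its cofactors, with 2 called higher. Neither list was tested as a set, and calls of members in either direction were not above the background.

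Cdk2, the cyclin-dependent kinase that the series title places downstream of NAT10, was among the called genes. Cdk2-205, which spans chr10:128700138-128704999 on the minus strand and keeps the intron shown above, held 3.55%, 3.76% and 3.93% of the gene's counts in wild-type and 9.57%, 9.78% and 11.7% in sgNAT10 MCA205 cells. The groups did not overlap, and the share rose by 1.47 on the log2 scale (edgeR, adjusted p = 0.0466). Its own counts were 453, 367 and 384 in wild type and 258, 405 and 352 in sgNAT10, which overlap (log2 change -0.39, edgeR adjusted p = 0.290). The gene as a whole was at 74.2, 56.0 and 63.6 FPKM in wild type and 16.9, 18.4 and 19.0 in sgNAT10, so the share was higher in a gene whose total was lower. Another retained-intron transcript, Cdk2-204, fell with the gene: its counts went from 5829, 3148 and 4173 to 1247, 1393 and 449 (-2.23, edgeR adjusted p = 0.0397), while its shares of 45.7%, 32.3% and 42.7% against 46.3%, 33.6% and 15.0% overlapped.

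The call for Cdk2-205 was narrow: it was lost in all 14 alternatives run, with log2 changes of 1.02 to 1.56 and adjusted p from 0.0563 to 1. In TC1 cells Cdk2-205 held 5.38%, 4.87% and 5.67% in wild type and 6.07%, 12.2% and 9.95% in sgNAT10, and in tumours 5.05%, 7.01% and 10.7% against 12.6%, 16.6% and 14.3%. In both the sgNAT10 libraries lay above all wild-type libraries, but neither passed the test (edgeR adjusted p = 0.503 and 0.411). The Cdk2 gene was at 57.2, 79.9 and 78.0 FPKM against 31.8, 37.0 and 35.6 in TC1 cells and at 19.9, 21.2 and 22.1 against 15.3, 19.2 and 16.9 in tumours. Of the other genes of the title, Myc had no retained-intron transcript in the tables, Dnmt1, the maintenance DNA methyltransferase, gave 0.201% to 0.433% of its counts to its 2 in MCA205 cells, and Nat10-205 held 43.0%, 32.5% and 23.1% against 27.3%, 48.4% and 46.2%, which overlap. In TC1 cells Nat10-205 held 23.1%, 18.3% and 31.2% against 52.2%, 45.0% and 37.4%, without overlap but not called (edgeR adjusted p = 0.393), and in tumours 23.4%, 49.6% and 26.1% against 34.7%, 29.5% and 28.5%.

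In percentage points, Rps24-204, Mybbp1a-208 and Ppid-204 had the largest rises among the called members of MCA205 cells. Rps24, a protein of the small ribosomal subunit, had 12.1%, 15.5% and 14.7% of its counts in Rps24-204 in wild type and 49.4%, 41.3% and 51.0% in sgNAT10, a rise of 1.75 on the log2 scale (edgeR, adjusted p = 0.0436). The gene was at 414, 419 and 420 FPKM in wild type and 281, 285 and 269 in sgNAT10. Rps24-204 is 2769 bases long, and longer transcripts give more counts per molecule. Per length, together with the other retained-intron transcript of the gene it was at 22.03, 28.5 and 28.6 FPKM against 73.2, 61.9 and 73.0. Mybbp1a, a nucleolar protein that binds MYB, had 18.7%, 16.9% and 17.8% in Mybbp1a-208 against 47.95%, 45.2% and 58.2% (1.5, edgeR adjusted p = 0.0409), with the gene at 140 to 154 FPKM in wild type and 140 to 149 in sgNAT10. Ppid, a cyclophilin that assists protein folding, had 33.6%, 37.0% and 34.7% in Ppid-204 against 59.8%, 58.3% and 60.5% (0.76, edgeR adjusted p = 0.0269). In each of the 3 genes every sgNAT10 library lay above every wild-type library. The Rps24-204 call was lost in 12 of 14 alternatives and those of Mybbp1a-208 and Ppid-204 in 10 of 14. Rps24 has near-identical copies elsewhere in the genome, so its split is uncertain.

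The other fall called in MCA205 cells was at very low share: Fn1-207, of the matrix protein fibronectin, had 65, 39 and 41 counts in wild type and 1 in each sgNAT10 library, 0.124%, 0.0719% and 0.0942% of the gene's counts against 0.00255%, 0.00170% and 0.00222% (log2 change -5.35, edgeR adjusted p = 0.0362), a call lost in 11 of 14 alternatives. The remaining calls, picked here after their values were seen, were rises of Hjurp-203, of the chaperone of the centromeric histone (1.96% on average in wild type, log2 change 1.70), of Dennd5a-204, of an exchange factor for Rab proteins (2.58), of Psph-206, of serine synthesis (2 counts in each wild-type library and 38, 40 and 30 in sgNAT10), and of 0610030E20Rik-202 (2.77). The count of 15 rested on all 6 libraries: with any 1 left out, between 0 and 2 members were called.

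In TC1 cells the 2 calls were falls. Rps24-204, which had risen in MCA205 cells, went from 27%, 26.6% and 26.5% to 11.8%, 11.5% and 11.6%. The libraries of each group lay close together and the groups far apart, and the share fell by 1.2 on the log2 scale (edgeR, adjusted p = 0.000324), a call that held in 10 of 13 alternatives. Mrpl42-204, of a mitochondrial ribosomal protein, went from 19.6%, 19.9% and 19.98% to 7.30%, 6.34% and 6.15% (-1.58, edgeR adjusted p = 0.0349), a call lost in all 13. In MCA205 cells Mrpl42-204 was at 11.2%, 12.4% and 13.0% against 21.4%, 18.5% and 22.4%, the opposite order, not called (edgeR adjusted p = 0.106). In tumours Rps24-204 was at 14.6%, 21.4% and 26.2% against 15.5%, 26.6% and 24.2%, and the groups overlapped.

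The call in tumours was Xdh-206, of xanthine dehydrogenase, the enzyme of the last steps of purine breakdown. It held 61.9%, 61.5% and 61.5% of the gene's counts in wild type and 87.5%, 87.4% and 85.9% in sgNAT10, a rise of 0.50 on the log2 scale (edgeR, adjusted p = 0.00247) that held in 10 of 13 alternatives. The libraries of each tumour group lay close together, while the same transcript ranged from 49.6% to 84.6% in wild-type MCA205 cells and from 38.1% to 86.0% in wild-type TC1 cells. The gene was at 13.0, 21.7 and 26.5 FPKM in wild-type and 50.7, 35.2 and 34.7 in sgNAT10 tumours. Srsf6-204 had the same order in tumours as in MCA205 cells, 16.6%, 17.1% and 15.7% against 34.7%, 36.7% and 31.2% (log2 change 1.06), with no overlap but not called (edgeR adjusted p = 0.121). Ppid-204 likewise had 21.3%, 39.1% and 40.0% against 57.9%, 55.3% and 56.9% (edgeR adjusted p = 0.422). Mybbp1a-208 varied between libraries of 1 group, with 1.15%, 33.6% and 5.53% in wild-type and 49.5%, 14.4% and 26.8% in sgNAT10 tumours.

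**Figure D4:**
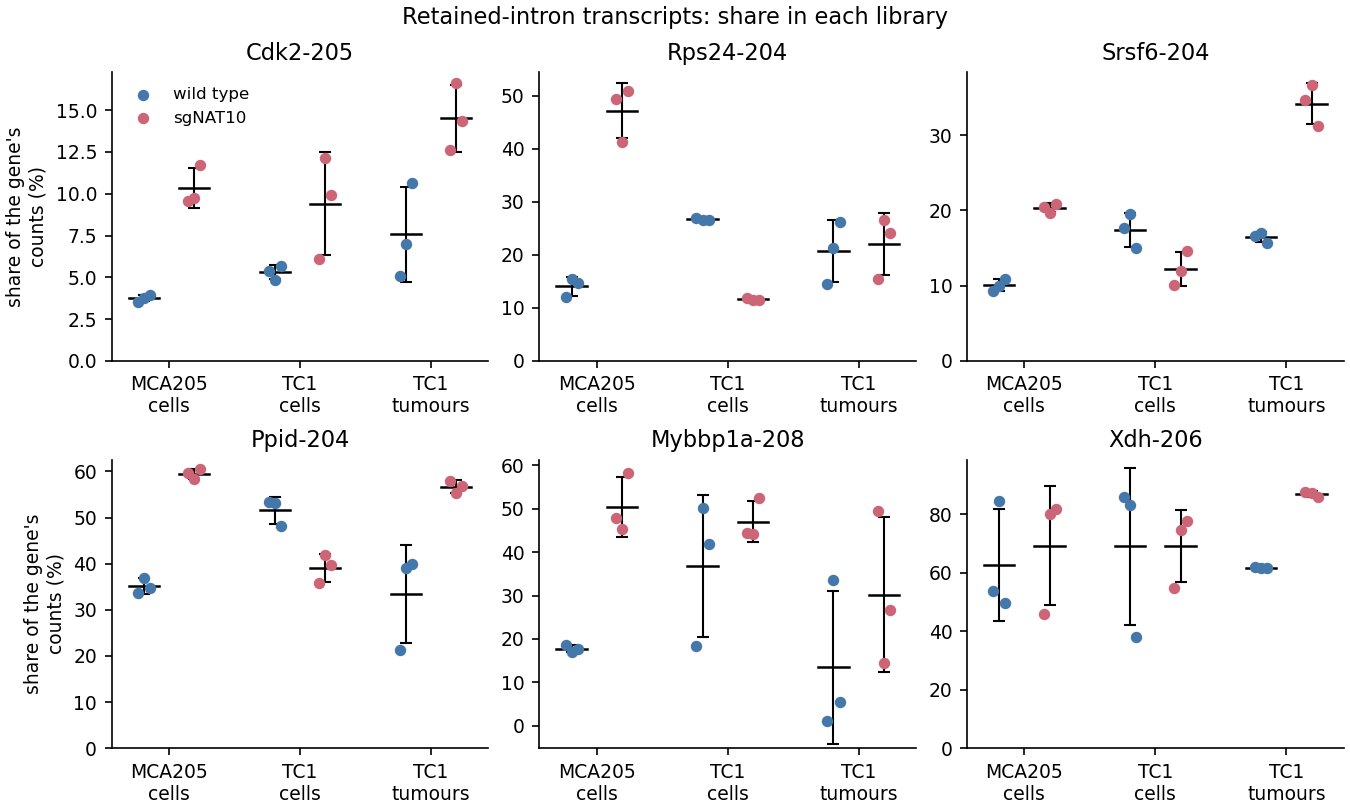
Share of the gene's counts (vertical axis, %) held by 6 retained-intron transcripts in each library (points), with the mean (line) and SD (error bar) of 3 libraries per group, wild type in blue and sgNAT10 in red. Rps24-204 is higher in sgNAT10 MCA205 cells (41.3% to 51.0% against 12.1% to 15.5%) and lower in sgNAT10 TC1 cells, Srsf6-204 and Ppid-204 are higher in MCA205 cells and tumours and lower in TC1 cells, and Mybbp1a-208 and Xdh-206 differ widely within groups outside 1 comparison.

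The effects of sgNAT10 on shares were compared between the lines by a test of their difference over 12 libraries (edgeR quasi-likelihood interaction, Benjamini-Hochberg adjustment). A higher effect in MCA205 than in TC1 cells was called for 72 of 9550 members, beside 0.452% of all transcripts called in this direction. A lower one was called for 40, near the 0.368% of all transcripts. Together these were 1.17% of the members. Of these 112, 50 were higher in all sgNAT10 MCA205 libraries and lower in all sgNAT10 TC1 libraries, and 24 the reverse. The test picks out such opposite orders, so these numbers follow in part from the selection. Among the 8760 members tested for share in both lines, 182 had the first pattern and 84 the reverse.

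Ppid-204 had opposite orders in the lines, with 53.3%, 53.3% and 48.2% against 35.8%, 41.9% and 39.7% in TC1 cells (difference of effects 36.9 points, edgeR adjusted p = 0.00103), as had Rps24-204 (48.2 points, edgeR adjusted p = 8.13e-05). Qars-218, of glutaminyl-tRNA synthetase, had means of 17.6% and 54.6% in MCA205 cells, without overlap, and of 51.3% and 43.0% in TC1 cells, with overlap (45.4 points, edgeR adjusted p = 0.0323). In the other direction, Snhg8-202, of a small nucleolar RNA host gene, was at 17.5%, 16.9% and 15.0% against 39.0%, 41.3% and 49.0% in TC1 cells and at 33.1%, 25.5% and 36.6% against 20.5%, 25.4% and 27.7% in MCA205 cells (-33.8 points, edgeR adjusted p = 0.0194). Pak1ip1-203, of a nucleolar inhibitor of the kinase PAK1, was at 21.96%, 25% and 27.6% against 4.98%, 7.36% and 6.75% in MCA205 cells, while TC1 groups overlapped at means of 11.96% and 11.8% (-18.3 points, edgeR adjusted p = 0.0393). Clk1-202, of the kinase that phosphorylates SR proteins, and Utp4-203, of ribosome assembly, had the same pattern, with means of 19.7% and 6.69%, and of 19.8% and 6.93%, in MCA205 cells, without overlap.

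**Figure D5:**
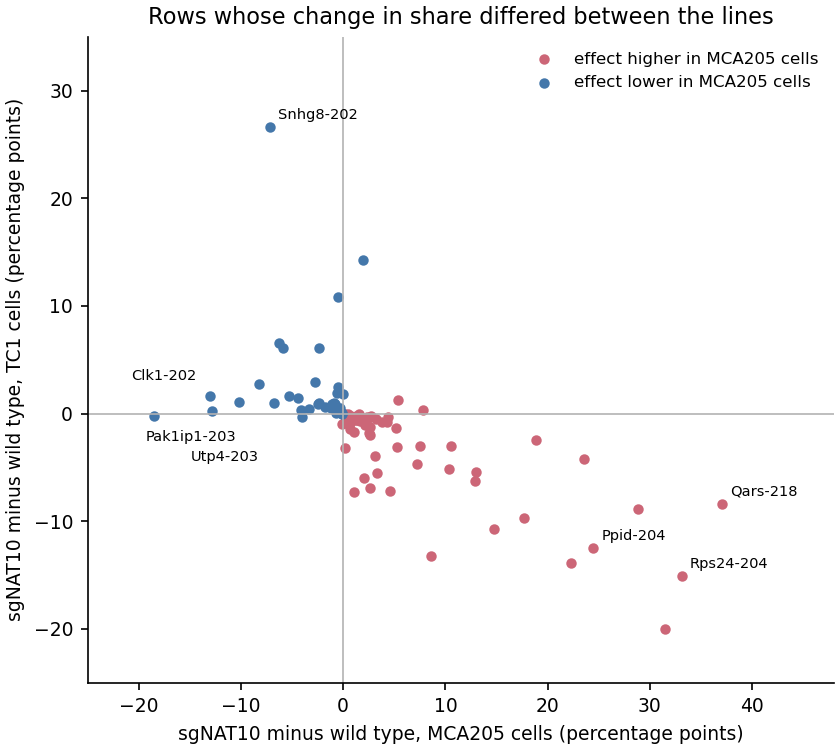
Change in share (sgNAT10 minus wild type, percentage points) in MCA205 cells (horizontal axis) and TC1 cells (vertical axis) for the 112 retained-intron transcripts whose effect differed between the lines, each a point, red where the effect was higher in MCA205 cells. Rps24-204, Qars-218 and Ppid-204 lie at the lower right, higher in MCA205 cells and lower in TC1 cells, and Snhg8-202 lies at the upper left.

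TC1 tumours and TC1 cells are both labelled TC1, so their effects were compared in the same way. The sample titles do not say whether the implanted sgNAT10 cells were those sequenced in culture. Mean Dbf4 levels went from 44.1 to 869 FPKM with sgNAT10 in TC1 cells and from 51.2 to 26.4 in tumours. Those of Sri went from 33.4 to 635 and from 39.1 to 45.5. Why these genes differed was not tested. Of 9536 members, 17 had a higher effect in tumours, beside 0.127% of all transcripts called in this direction, and 3 a lower one, beside 0.149%. Srsf6-204 differed by 22.9 points (edgeR, adjusted p = 0.0187): in TC1 cells it was at 17.6%, 19.5% and 15.0% against 10.1%, 11.9% and 14.5%, the opposite order to tumours. Man2a2-204, of a Golgi mannosidase, was at 2.87%, 2.73% and 1.73% against 11.7%, 15.9% and 14.4% in tumours and at 3.64%, 3.0% and 5.16% against 2.38%, 2.82% and 2.82% in TC1 cells, without overlap in either and in opposite orders (12.8 points, edgeR adjusted p = 0.0171). Tk1-202, of thymidine kinase, was at 4.65%, 5.51% and 4.50% against 14.3%, 14.7% and 15.6% in tumours and at 5.08%, 4.63% and 3.97% against 1.98%, 2.83% and 3.06% in TC1 cells (11.9 points, edgeR adjusted p = 0.0105). E2f6-202, of a transcriptional repressor of the E2F family, holds the AT-AC intron shown above and was at 18.3%, 18.2% and 20.7% against 24.7%, 24.6% and 23.9% in tumours and at 21.2%, 21.1% and 21.6% against 17.8%, 18.2% and 16.4% in TC1 cells (9.22 points, edgeR adjusted p = 0.0465). Sdr39u1-205 had shares of 7.21%, 14.8% and 14.1% in wild-type tumours and no counts in the sgNAT10 tumours. The gene was at 15.5, 15.8 and 15.3 FPKM in wild-type and 4.60, 5.42 and 3.69 in sgNAT10 tumours. Sdr39u1-216, of the same gene, went the other way in tumours, with means of 0.840% and 8.61% (6.73 points, edgeR adjusted p = 0.0352).

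Transcripts with AT-AC introns, a class looked at after the values of E2f6-202 were seen, were counted in the same way. In tumours 6 of 10 such transcripts were higher in all sgNAT10 libraries and none lower, with a median log2 change of 0.65, beside 27.5% of all members and 13.5% of all transcripts higher and a median of 0.48 over members. In TC1 cells none of 9 was higher and 6 were lower, with a median of -0.48, beside 8.48% of members and 8.36% of all transcripts lower, and in MCA205 cells 4 of 10 were higher and none lower, with a median of 0.25, beside 16.3% of members and 11.3% of all transcripts higher. They included Pole2-203, of DNA polymerase epsilon, at 2.40%, 5.16% and 6.89% against 10.2%, 14.6% and 8.40% in tumours, and Sms-203, of spermine synthase, at 14.5%, 19.8% and 22.7% against 27.7%, 31.6% and 31.3%. E2f6-202, which led to the class, is itself counted among those higher in tumours and those lower in TC1 cells. These counts thus partly restate its values. The transcripts come from 8 genes, and the class was given no test.

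The comparisons share no library, and the members whose groups did not overlap were set side by side. Of 8623 members tested in both, 1476 were higher in MCA205 cells and 2499 in tumours, and 591 in both, 40.0% of the first and 23.6% of the second. Of the 912 lower in MCA205 cells, 267 were higher in tumours. Of 8760 tested in both lines, 70 were higher in MCA205 and TC1 cells, 4.73% of 1480 and 11.7% of 598. Another 182 were higher in MCA205 cells and lower in TC1 cells, and 84 the reverse. TC1 cells and tumours had 149 in common, 26.4% of 564 and 6.16% of 2420. Of the 713 lower in TC1 cells, 265 were higher in tumours. Beside these overlaps, 16.3% of all members tested were higher in MCA205 cells, 6.83% in TC1 cells and 27.5% in tumours. The overlap of TC1 cells and tumours was near these shares. So was the part of the members lower in MCA205 cells that was higher in tumours. No member was called in the same direction in more than 1 comparison, and Rps24-204 was called in opposite directions.

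The members were then grouped by the genes they belong to and counted as higher or lower without overlap. Of all members, 16.3% were higher and 10.6% lower in MCA205 cells, 6.83% and 8.48% in TC1 cells, and 27.5% and 1.96% in tumours. Of all transcripts tested, the values were 11.3% and 9.87%, 7.85% and 8.36%, and 13.5% and 7.44%. The members of SR protein genes in MCA205 cells split evenly, with 9 of 27 higher without overlap and 9 lower (share test: 3 rose and 1 fell). In TC1 cells 3 of 25 were higher and 7 lower, and in tumours 13 of 28 higher and none lower, with a median log2 change of 0.67. Genes of heterogeneous nuclear ribonucleoproteins, which bind nascent RNA, had 8 of 53 members higher and 14 lower in MCA205 cells, 1 of 47 higher and 13 lower in TC1 cells, and 31 of 49 higher and none lower in tumours. For the spliceosome and its cofactors the numbers were 35 higher and 20 lower of 137, 5 and 23 of 134, and 69 and 1 of 132. These tumour shares (46.4%, 63.3% and 52.3%) stand beside 27.5% of all members there, without a test of the list.

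Outside splicing, members of the amino acid and unfolded protein response list were higher for 16 of 27 and lower for none in tumours (59.3% higher, median 0.86, beside 27.5% and 0.48 for all members). In MCA205 cells 2 of 30 were higher (6.67%, beside 16.3% of all members) and 5 lower. In TC1 cells 3 of 24 were higher (12.5%, beside 6.83% of all members) and 4 lower. Atf4-203, of the factor that leads this response, was at 3.44%, 2.74% and 3.52% in wild-type and 8.95%, 8.70% and 10.3% in sgNAT10 TC1 cells, without overlap and not called (edgeR adjusted p = 0.0953). Of the cell cycle list 7 of 44 were higher in tumours (15.9%, below the 27.5% of all members), 10 of 52 in MCA205 cells (19.2%, beside 16.3%), with 9 lower, and 4 of 47 in TC1 cells, with 4 lower. In the list of nuclear RNA decay and export, 13 of 47 were higher and 1 lower in MCA205 cells, with 27.7% higher beside 16.3% of all members. Among them were Exosc2-205 and Exosc5-202 of the RNA exosome. Exosc5-202 was at 32.7%, 30.4% and 34.8% against 49.6%, 58.8% and 56.3% (edgeR adjusted p = 0.0859). In TC1 cells 3 of 44 of this list were higher (6.82%, beside 6.83% of all members) and 9 lower. In tumours 11 of 47 were higher (23.4%, below the 27.5% of all members) and 2 lower.

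The remaining lists are given as members higher and lower without overlap, in MCA205 cells, TC1 cells and tumours in turn. Of all members 16.3%, 6.83% and 27.5% were higher and 10.6%, 8.48% and 1.96% lower. No list was tested against these shares. Splicing kinases, which phosphorylate SR proteins, had 7 and 5 of 25, 2 and 1 of 22, and 6 and 1 of 23 (26.1% higher in tumours, near all members). Genes known for regulated detained introns had 5 and 7 of 33, 3 and 2 of 30, and 8 and 1 of 32 (25% higher in tumours, near all members). Factors of nonsense-mediated decay and of the exon junction complex had 3 and 1 of 22, 2 and 1 of 19, and 10 and 0 of 20. The minor spliceosome, which removes AT-AC introns among others, had 4 and 0 of 11, 0 and 1 of 10, and 4 and 0 of 11. Targets of p53 had 4 and 2 of 19, 2 and 0 of 18, and 8 and 0 of 17. The DNA methylation machinery had 3 and 5 of 17, 3 and 1 of 20, and 7 and 1 of 18, and cholesterol synthesis 6 and 4 of 26, 1 and 0 of 19, and 4 and 1 of 19. The 4 genes of the title had 5 and 0 of 8, 3 and 0 of 10, and 1 and 0 of 9.

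Counts, unlike shares, also follow the gene. In MCA205 cells 337 of 9868 members rose in counts (edgeR quasi-likelihood, adjusted p under 0.05), beside 5.71% of all transcripts, and 199 fell, beside 4.88%. Together these were 5.43% of the members and 10.6% of all transcripts. In TC1 cells 128 of 9461 rose, beside 4.09%, and 128 fell, beside 4.4%, together 2.71% of the members beside 8.49% of all transcripts. With any 1 library left out the MCA205 count was 150 to 229, and the TC1 count was 195 without sgNAT10 1 and 45 to 60 without any other. In tumours none of 9731 was called by edgeR, beside 0.00447% of all transcripts higher and 0.00223% lower (0.0067% in either direction). At an unadjusted p under 0.05, 1093 were higher, beside 8.65%, and 230 lower, beside 9.08%, and DESeq2 called 844 higher and 206 lower. Of the 529 MCA205 members that were called in counts and tested in share, 14 were also called in share.

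Members of interferon-stimulated genes, which cells switch on in response to type I interferon, are those the study's title points to. In MCA205 cells 19 of 50 rose and none fell (median log2 change 1.95), while the median change in share was -0.07. In TC1 cells 6 of 44 rose and none fell (median 1.95, share -0.16). The TC1 libraries of a group differed on these genes: Irf7 was at 25.96, 7.77 and 5.34 FPKM in wild type and 37.6, 135.6 and 150.8 in sgNAT10, and Oas3, of an antiviral RNA sensor, at 7.52, 1.36 and 0.838 against 6.77, 36.8 and 39.2, with wild type 1 above sgNAT10 1. In tumours none of 69 was called (median 1.51, share 0.53). Irf7-210, of the factor that amplifies interferon production, had 99, 35 and 59 counts in wild type and 1021, 1377 and 1156 in sgNAT10 MCA205 cells (4.07, edgeR adjusted p = 0.00561). Cxcl10-204, of an interferon-induced chemokine, had 118, 196 and 67 against 1891, 2598 and 2045 (4.0, edgeR adjusted p = 0.00383). Their shares of 7.32%, 2.36% and 5.46% against 10.6%, 9.87% and 11.4%, and of 2.27%, 4.19% and 1.66% against 3.81%, 3.52% and 3.87%, were not called. Of the class I antigen presentation list, 11 of 42 rose and 1 fell in counts in MCA205 cells, and 4 of 43 were higher and 11 lower in share.

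Prl2c2-205, of a placental prolactin-family gene with near-identical copies, had 3, 1 and 2 counts in wild type and 223, 394 and 231 in sgNAT10 MCA205 cells (6.89, edgeR adjusted p = 0.00150). Ifi203-207, of an interferon-induced gene, had 4, 15 and 0 against 258, 474 and 345 (5.7, edgeR adjusted p = 0.0436). Falls in MCA205 cells were found for Pak1ip1-203, from 1077, 1245 and 1229 to 192, 421 and 281 (-2.17), for Hnrnpk-234, from 192, 220 and 199 to 59, 74 and 50 (-1.87), and for Rbm25-212, of a splicing regulator, from 330, 298 and 231 to 68, 106 and 94 (-1.81). In TC1 cells Dbf4-205, of the activator of the replication kinase CDC7, had 16, 22 and 30 counts against 596, 938 and 1129 (5.28, edgeR adjusted p = 0.00333). Falls there included Bgn-205, of the proteoglycan biglycan, from 197, 195 and 289 to 2, 3 and 1 (-6.73), and H2-Q7-206, of a class I molecule with close paralogs, from 5919, 4752 and 5833 to 232, 538 and 491 (-3.71). The H2-Q7-206 shares lay between 95.1% and 98.2% in all 6 libraries. Some gene totals moved likewise: mean FPKM went from 44.1 to 869 for Dbf4 and from 296 to 6.01 for Bgn in TC1 cells. For Prl2c2 it went from 24.2 to 1316 in MCA205 cells. Totals changed less there for Pak1ip1 (37.6 to 33.3), Hnrnpk (269 to 239) and Rbm25 (52.5 to 51.0).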

How the data were processed

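RNA of MCA205 cells, TC1 cells and TC1 tumours was sequenced, 3 wild-type and 3 sgNAT10 libraries each. The deposited tables give, per transcript and library, an estimated count in whole numbers and an FPKM value made by the authors, with the transcript type. Bowtie2, featureCounts, FastQC and Trim Galore were used with the build mm10, per the submitters' processing notes. What program made the transcript table was not stated. Columns headed KO were taken as sgNAT10. How an estimated count is split among overlapping transcripts affects every share.

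Shares were tested with edgeR 4.0.16 (R 4.3.3), a quasi-likelihood fit with the gene's total per library as offset, over transcripts with a mean of at least 10 counts; counts with TMM factors and filterByExpr; differences of effects over 12 libraries. Benjamini-Hochberg adjustment ran over all transcripts tested, with a threshold of 0.05. Total shares had an exact permutation test. limma 3.58.1 and DESeq2 1.42.0 gave alternatives (for limma, a pseudocount of 1 on the share of FPKM in percent). The scripts were tested on simulated data, where the share test missed most changed transcripts and, in the simulations of both cell tables, a sizeable part of its few calls were unchanged transcripts. Introns came from GENCODE vM21.

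Named were the 8 largest called rises and falls in share, the 4 largest called count changes per direction with a higher group mean of at least 200 counts, up to 3 transcripts per gene list by p, those of the title genes, and the 4 largest differences of effects per direction; from these, those described were chosen, and some are not reported here. Members, lists and tests were chosen with earlier results of these data known. Same-numbered libraries did not deviate together (correlations from -0.120 to 0.0541 in MCA205 cells), so numbers were not used as pairs. Left-out libraries, filters, minimums and scalings were tried as alternatives.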

Additional observations from a re-analysis of the deposited data

Results flagged for a closer look

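These results were flagged because a test of the difference itself (edgeR quasi-likelihood interaction, Benjamini-Hochberg adjustment) found that the effect of sgNAT10 on the share differed between 2 settings. Each value is the change in mean share, in percentage points, in the first setting minus that in the second.

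Between MCA205 and TC1 cells, the difference was 48.2 for Rps24-204, 45.4 for Qars-218 and 36.9 for Ppid-204. It was -33.8 for Snhg8-202, -18.3 for Pak1ip1-203, -14.6 for Clk1-202 and -13.1 for Utp4-203.

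Between tumours and TC1 cells, it was 22.9 for Srsf6-204, 12.8 for Man2a2-204, 11.9 for Tk1-202 and 9.22 for E2f6-202. It was -17.8 for Sdr39u1-205, -4.25 for Zbtb46-203 and -1.85 for Cep170-207. Tumours also hold cells other than TC1, whose part was not tested. The sample titles do not say whether the implanted sgNAT10 cells were those sequenced in culture.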

How the results depend on the processing

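The total share difference in TC1 cells (-0.0780 points, not called) changed sign in 2 alternatives: it was 0.127 without sgNAT10 1 and 0.0388 for transcripts with part of an intron, and ran from -0.188 to 0.127 with 1 library left out. No called value changed sign in the alternatives run. Count calls in MCA205 cells (536) were 1980 with DESeq2, 208 with no filter, 16 without wild type 1 and sgNAT10 2, and 150 to 229 with 1 library left out. In TC1 cells (256) they were 911, 91 and, with 1 left out, 45 to 195, and in tumours (0) DESeq2 called 1050. Share calls in MCA205 cells (15) were 4 with limma on log2 odds, 9 with limma on the share of FPKM, 3 with no filter, 0 without wild type 1 and sgNAT10 2, and 0 to 2 with 1 left out. In TC1 cells (2) they were 5 with transcripts summed per gene, 4 with diffSpliceDGE, 1 with a gene minimum of 500 counts, no filter or robust spread, and 1 to 3 with 1 left out. In tumours (1) they were 6 with diffSpliceDGE and 2 and 3 with the limma fits. Without the filter, 67 and 10 members differed in effect (112 and 20). The cause of these differences was not tested.

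The total share difference in MCA205 cells (0.369 points) was 0.478 as a mean over genes, 0.196 without the top 50 genes, 0.266 for whole-intron transcripts, 0.106 for those with part of an intron and 0.215 with gene weights fixed. In tumours (0.873) it was 1.29 over genes, 0.494 for whole introns and 0.370 for parts. Alternatives on intron class, gene weights, robust spread and overlap without libraries were chosen after seeing the data.

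With the replicate number as a block, although the numbers did not pair the samples, count calls were 10, 1 and 0, share calls 0, 1 and 0, and differences of effects 0 and 1. Depth limits members under 10 mean counts, which were not tested for share.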
